A study of Mus musculus with 2 samples.

Results

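The genes described here encode miR-219 and miR-338, the miRNAs that mark myelinating oligodendrocytes, and the miRNA genes annotated on the opposite strand of their hairpins. They were chosen by gene name, not by a cutoff on level, but with earlier results of these data known. They are Mir219a-2, Mir219b, Mir219a-1, Mir338 and Mir3065, which are 5 of the 2202 miRNA genes in the count tables. The libraries came from the hippocampus of adult female 5xFAD/CAST mice, 8 to 10 months old, and were made from RNA under 30 nt. The labels give 1 group with 2 biological replicates under a shared donor entry, so no comparison between genotypes, ages or tissues exists in these data, and the spread between replicates may be partly technical. In 5xFAD animals, transgenes driven by the neuronal Thy1 promoter lead to amyloid plaques, and CAST names an inbred strain of castaneus origin. Neither library is from mice without the transgenes.

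miRNAs are short RNAs cut from hairpin precursors, and they repress mRNAs that pair with their seed, the bases 2 to 8 from the 5′ end. miR-219 and miR-338 rise when oligodendrocyte precursor cells stop dividing and begin to make myelin, and they repress genes that hold cells in the precursor state, among them Pdgfra and Sox6. When both strands of a hairpin locus are transcribed, each transcript can fold into a hairpin of its own. Mir219b is annotated on the strand opposite Mir219a-2, and Mir3065 on the strand opposite Mir338.

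The mature sequences are shown because the strands of each locus encode miRNAs with different seeds, and because one of them is shared by both miR-219a genes. They were taken from RefSeq (GRCm38.p6), where all 5 genes had an entry, and run 5′ to 3′ with the seed in capitals. miR-219a-2-3p and miR-3065-3p are not shown.
miR-219a-5p (Mir219a-1 and Mir219a-2): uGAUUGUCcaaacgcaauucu
miR-219a-1-3p (Mir219a-1): aGAGUUGCgucuggacgucccg
miR-219b-5p (Mir219b): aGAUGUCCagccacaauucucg
miR-219b-3p (Mir219b): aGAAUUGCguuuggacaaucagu
miR-338-5p (Mir338): aACAAUAUccuggugcugagug
miR-338-3p (Mir338): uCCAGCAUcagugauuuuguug
miR-3065-5p (Mir3065): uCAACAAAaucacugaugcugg
No seed in this set was shared by 2 of these names, and 0 other mature mouse miRNA names in the same table had any of them. All 21 bases of miR-219a-5p were the reverse complement of bases in miR-219b-3p, which has 23. miR-338-3p and miR-3065-5p, both of 22 bases, were reverse-complementary over 21. A mature miRNA and the one lying across from it thus cover almost the same bases of the genome, and only the strand of a read tells them apart.

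The miR-219a genes are a different case, since their common product has the same sequence and the same strand at each locus. In the hairpins below, the longest run that both hairpins hold is in capitals. It is 22 bases long, bases 18 to 39 of Mir219a-2 and 20 to 41 of Mir219a-1, and it contains the whole of miR-219a-5p.
Mir219a-2: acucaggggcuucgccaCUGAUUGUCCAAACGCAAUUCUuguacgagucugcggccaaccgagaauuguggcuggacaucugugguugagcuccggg
Mir219a-1: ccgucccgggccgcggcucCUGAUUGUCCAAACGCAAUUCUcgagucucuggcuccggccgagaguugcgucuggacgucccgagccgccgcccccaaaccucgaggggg
A read that lies inside those capitals matches both genes equally well. The tables keep multimapping reads in a line of their own, 36.3% of all reads in replicate 1 and 41.7% in replicate 2, and how many of these were miR-219a-5p was not tested. Among all hairpins of the RefSeq table, miR-219a-5p was found in 2, and miR-338-5p, miR-338-3p and miR-3065-5p in 1 each. The same held in the M21 transcripts, where miR-338-5p and miR-338-3p matched Mir338 alone on their strand.

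The hairpins lie at 3 places in the genome (mm10, M21 annotation). Mir219a-2 (ENSMUSG00000065485.1) is at chr2:29845631-29845727 on the minus strand, overlaps no other gene than Mir219b, and lies 628 bases from Urm1, a gene for a ubiquitin-like protein. Mir219b (ENSMUSG00000105010.1), at chr2:29845647-29845711 on the plus strand, falls entirely within it. Mir338 (ENSMUSG00000065600.1), at chr11:120014765-120014862 on the minus strand, lies in an intron of Aatk, a kinase gene expressed in the nervous system, on the strand of Aatk. Mir3065 (ENSMUSG00000105524.1), at chr11:120014767-120014853 on the plus strand, lies within Mir338 and is antisense to the Aatk intron. Mir219a-1 (ENSMUSG00000065555.1), at chr17:34024983-34025092 on the minus strand, shares 88 bases with an exon of Gm26940, a lincRNA gene on the same strand, and lies 302 bases from Ring1, a Polycomb gene. The annotation also places a miRNA gene across from Mir219a-1, namely Mir219c, at chr17:34025012-34025071. It is not one of the 5 genes, and its counts are given where they complete the locus.

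**Figure D1:**
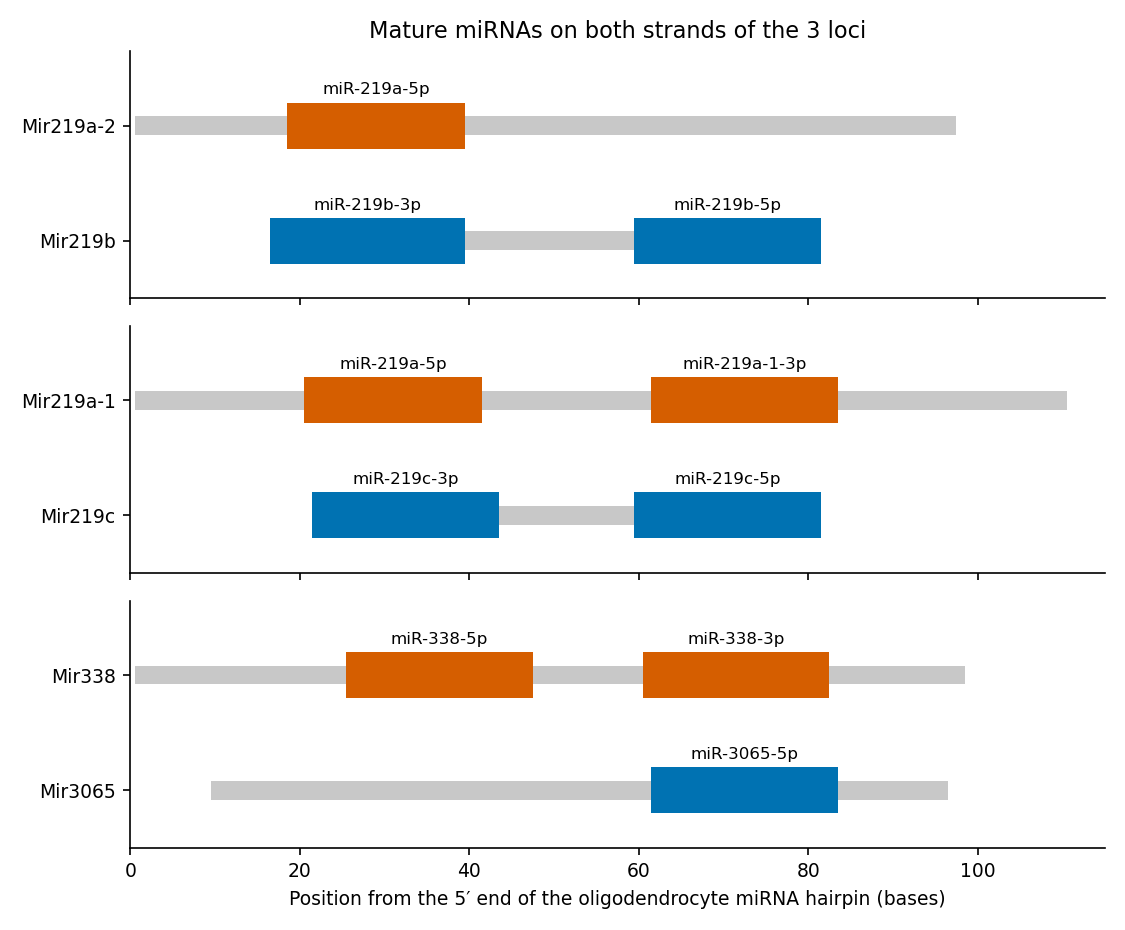
Hairpins (grey) and mature miRNAs of the minus strand gene (orange, upper row of each panel) and the plus strand gene (blue, lower row), drawn by position in bases from the 5′ end of the Mir219a-2, Mir219a-1 or Mir338 hairpin, so that the plus strand genes run 5′ to 3′ from right to left. Each mature miRNA of a plus strand gene lies across from an arm of the other hairpin, as miR-3065-5p does over 21 bases of miR-338-3p.

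Mir219a-2 and Mir338 supplied nearly all of the reads assigned to these loci. Mir219a-2 had 10341 counts in replicate 1 and 16561 in replicate 2 on its own strand. Mir338 had 10963 and 12684. Together they made up 99.92% and 99.91% of the counts of the 5 genes, and the other 3 genes added 17 and 25 counts. Scaled to the own-strand total of each library (CPM, over 3135960 and 4377622 counts in replicates 1 and 2), Mir219a-2 was at 3540 ± 343 CPM and Mir338 at 3197 ± 423 CPM (SD, n = 2). They ranked 47 and 50 of 2202 genes. The level and rank of Mir219a-2 leave out multimapping reads, which would include exact reads of miR-219a-5p. In bulk tissue, the number of oligodendrocytes and the amount of miRNA per oligodendrocyte cannot be told apart. Counts of different miRNAs also depend on how well each is ligated and amplified, so their levels are not numbers of molecules.

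The order of Mir219a-2 and Mir338 was not the same in the 2 libraries. In replicate 1 Mir219a-2 had 0.943 times the counts of Mir338 (exact 95% binomial interval 0.918 to 0.969), and in replicate 2 it had 1.31 times (1.28 to 1.34). This ratio does not depend on how the libraries are scaled, and the intervals, which cover counting error only, did not overlap. It leaves out multimapping reads, which would include exact reads of miR-219a-5p, while both arms of Mir338 matched 1 hairpin of the RefSeq table, and their share of all reads also differed between the libraries (36.3% in replicate 1 and 41.7% in replicate 2). Their part in the ratio was not tested. On the log2 scale the ratio was 0.15 ± 0.33 (SD, n = 2), so the mean difference was smaller than the spread between replicates. The log2 ratio of replicate 2 to replicate 1 in CPM was 0.20 for Mir219a-2 (interval 0.16 to 0.23) and -0.27 for Mir338 (-0.31 to -0.23). Such differences were ordinary for these libraries: 30.5% of the 384 genes with at least 10 counts in each library had a smaller one than Mir219a-2, and 38.8% a smaller one than Mir338, beside a median size of 0.36. Markers of some other cell types also differed between the libraries. The choroid plexus markers Mir204 and Mir34c had a summed level of 2894 CPM in replicate 1, beside 1036 CPM in replicate 2. Mir126a of endothelium was at 12521 and 22475 CPM. The other marker groups differed less for their level. With the libraries in the same order, the neuronal list had sums of 28330 and 24423 CPM. Microglia and myeloid markers stood at 460 and 479 CPM, and red blood cell markers at 67.3 and 61.2 CPM. The part of these cell types in the differences of Mir338 and Mir219a-2 was not tested. The summed level of the 5 genes was 6799 CPM in replicate 1 and 6686 CPM in replicate 2, or 6743 ± 79.6 CPM, which hides the opposite signs of its main contributors.

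**Figure D2:**
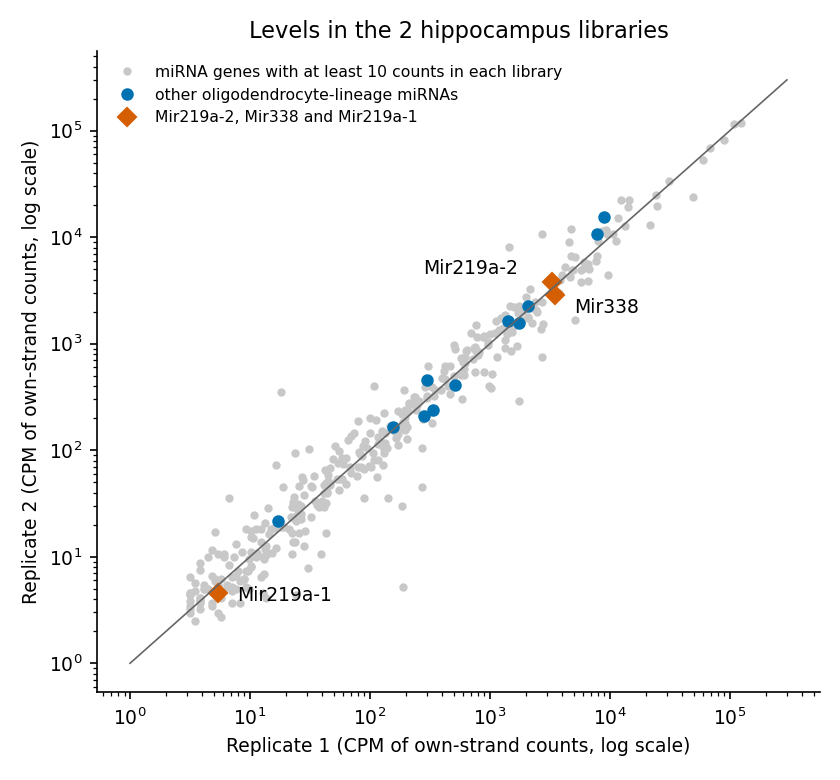
CPM of own-strand counts in replicate 1 (x axis) and replicate 2 (y axis), both on log scales, for the 384 miRNA genes with at least 10 counts in each library, with the line of equal levels. Mir219a-2 lies above the line at 3298 and 3783 CPM, Mir338 below it at 3496 and 2897 CPM, and Mir219a-1 at the low end at 5.42 and 4.57 CPM.

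Mir219a-1 was counted at a far lower level than Mir219a-2, although both encode miR-219a-5p. It had 17 counts in replicate 1 and 20 in replicate 2, or 4.99 ± 0.603 CPM (SD, n = 2), and ranked 364. Mir219a-2 had 608 times as many counts as Mir219a-1 in replicate 1 (exact 95% interval 380 to 1045) and 828 times in replicate 2 (536 to 1356), and these intervals overlap. The comparison rests on the reads assigned to 1 gene only. Reads inside the 22 shared bases match both genes, so it does not give the share of miR-219a-5p made from each. Gm26940 holds miR-219a-1-3p on the same strand, and reads of that exon cannot be told apart from those of the hairpin.

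The strand opposite Mir219a-2 and Mir338 was almost without assigned reads. Mir219b had 0 counts in replicate 1 and 2 in replicate 2, and Mir3065 had 0 and 3. In replicate 1 the absence of counts still allowed a level of up to 0.957 CPM. Neither gene reached 10 counts in each library, which 3 of the 5 genes did, beside 17.4% of all 2202 miRNA genes. At the chromosome 2 locus Mir219a-2 held 100% of the reads assigned to either gene in replicate 1 (exact 95% interval from 99.96%) and 99.99% in replicate 2 (99.96% to 99.999%). At the chromosome 11 locus Mir338 held 100% in replicate 1 (from 99.97%) and 99.98% in replicate 2 (99.93% to 99.995%). At the chromosome 17 locus Mir219c had 0 counts in both libraries, but with only 17 and 20 counts for Mir219a-1 the exact 95% interval of the Mir219a-1 share began at 80.5% in replicate 1 and 83.2% in replicate 2. These shares cover reads assigned to 1 gene. Of the 23 bases of miR-219b-3p, 22 lie in the run shared by the chromosome 2 and 17 loci, as does all of miR-219a-5p. Multimapping reads of either strand are thus outside the miR-219 shares. The counts of Mir219b set no limit on reads of miR-219b-3p that lie inside the run. All 23 bases together matched Mir219b alone on their strand, but how such full reads were assigned was not tested. At the chromosome 11 locus, miR-3065-5p was not detectable above a few reads at this depth, and it matched Mir3065 alone on its strand.

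In the opposite-strand column of the tables the partners appear abundant, and this is the same set of reads. Mir219b had 10341 and 16561 opposite-strand counts in replicates 1 and 2, exactly the own-strand counts of Mir219a-2. Mir3065 had 10963 and 12684, exactly those of Mir338, and Mir219c had 17 and 20, those of Mir219a-1. In the other direction the 2 opposite-strand counts of Mir219a-2 and the 3 of Mir338 in replicate 2 were the own-strand counts of Mir219b and Mir3065. The opposite-strand column thus holds no separate measurement of these loci.

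**Figure D3:**
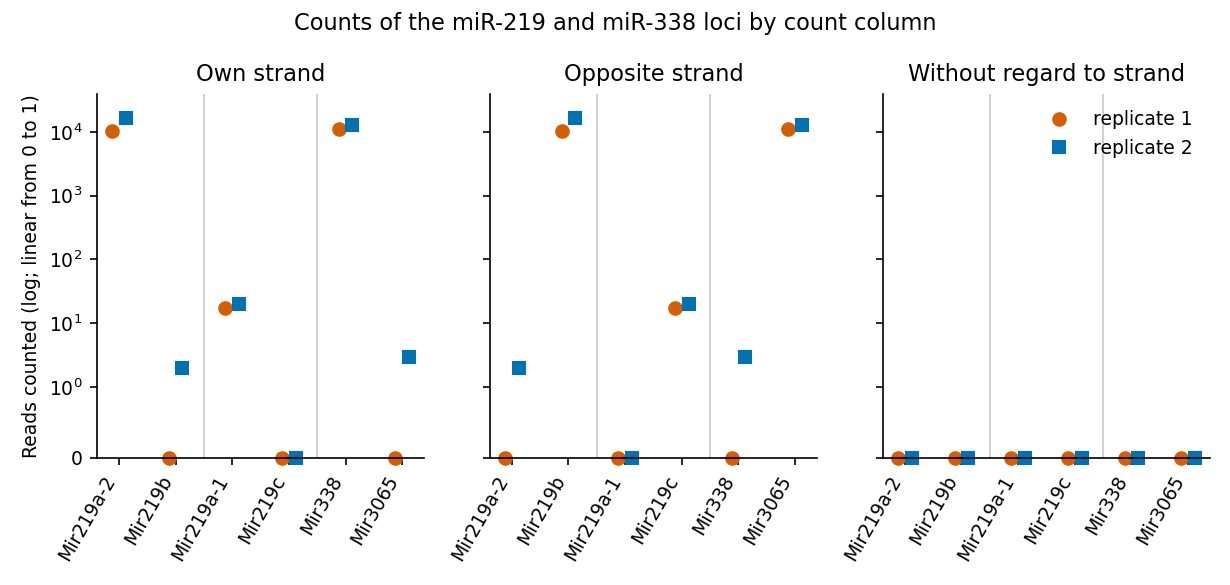
Reads counted for the 6 genes of the 3 loci on their own strand, on the opposite strand and without regard to strand (y axis, log scale above 1 and linear from 0 to 1), in replicate 1 (circles) and replicate 2 (squares). The own-strand values of Mir219a-2, Mir219a-1 and Mir338 reappear as opposite-strand values of Mir219b, Mir219c and Mir3065, and the 6 genes are at 0 in both libraries when strand is ignored.

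Counted without regard to strand, all 5 genes and Mir219c had 0 reads in both libraries. Of the 384 genes with at least 10 own-strand counts in each library, 24 were at 0 in the unstranded column, which is 6.25%, and all 24 overlap a miRNA gene on the other strand. Mir219a-2, Mir219a-1 and Mir338 are 3 of the 24. By level the leading genes of the 24 were Mirlet7e at 32276 ± 1957 CPM, Mir191 at 10050 ± 886 CPM and Mir378a at 3912 ± 64.0 CPM (SD, n = 2), followed by Mir219a-2 and Mir338. The missing reads stand in the summary line for ambiguous reads, which held 221479 reads in replicate 1 and 383239 in replicate 2 in the unstranded column and 0 in the strand columns. The 3 loci had 21321 and 29270 own-strand counts over both strands, equal to 9.63% (exact 95% interval 9.50% to 9.75%) and 7.64% (7.55% to 7.72%) of those ambiguous reads. The opposite-strand counts of all genes in such pairs summed to 221479 and 383239, the same totals as the ambiguous reads.

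This bears on how strand-specific the libraries appear. Over all miRNA genes the own-strand share of the 2 strand columns was 93.4% in replicate 1 and 91.9% in replicate 2. Without the 64 genes that overlap a miRNA gene on the other strand it held 99.996% in each, with 112 and 162 opposite-strand counts left beside 2914455 and 3994355 own-strand counts. In replicate 2 the 2 counts of Mir219b and the 3 of Mir3065 left own-strand shares of 99.988% for Mir219a-2 and 99.976% for Mir338. Both shares are below the 99.996% outside such pairs, but they rest on few partner counts. The origin of these partner counts was not tested.

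Compared with other opposite-strand pairs of miRNA genes, the miR-219 and miR-338 loci followed the common pattern. The annotation held 32 such pairs, and in 26 at least 1 gene had 10 counts in each library. In 21 of these 26 the partner had 0 counts in both libraries, and in 24 the leading strand held more than 99% in each. Mir219a-2 with Mir219b and Mir338 with Mir3065 were among the 5 pairs with any partner count, with Mir129-2, Mir486 and Mir24-1. Mir24-1 and Mir3074-1 formed the 1 pair with 10 counts in each library on both strands: Mir24-1 had 83 and 131 counts, beside 28 and 27 for Mir3074-1. By counts of the leading gene Mir219a-2 and Mir338 stood at places 5 and 6 of the 32 pairs, and Mir219a-1 at 26.

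**Figure D4:**
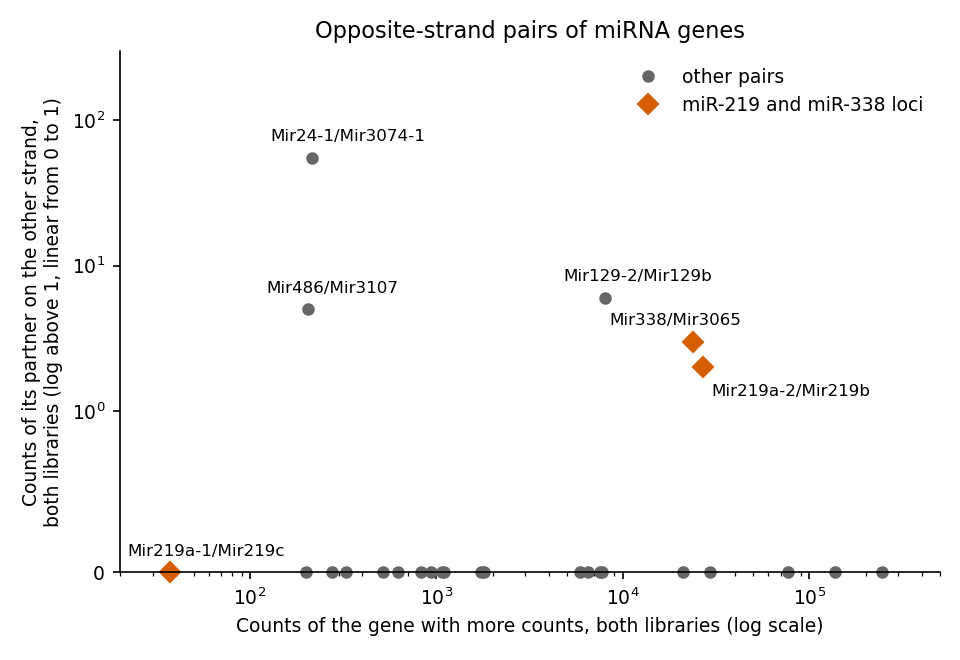
Counts of the leading gene summed over both libraries (x axis, log scale) against those of its partner on the other strand (y axis, log scale above 1 and linear from 0 to 1), for the 26 pairs in which the leading gene had at least 10 counts in each library. Mir219a-2 and Mir338 have 26902 and 23647 counts beside 2 and 3 for their partners, and Mir24-1 has 214 beside 55.

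Other miRNAs tied to the oligodendrocyte lineage were nearly all counted, and most stood below Mir219a-2 and Mir338. Of 12 listed genes 11 had at least 10 counts in each library, beside 17.4% of all miRNA genes. The median level of the 12 was 420 CPM, beside 116 CPM over the 384 genes that reached this count and 0 CPM over all genes. Of all miRNA genes, 1445 had 0 counts in both libraries. The list was fixed with earlier results of these data known, so these comparisons are descriptions and no test of the lineage. Above Mir219a-2 were Mir125a at 12255 ± 4643 CPM and Mir23a, which represses the lamin B1 gene and favours myelination, at 9227 ± 1999 CPM (SD, n = 2). Mir138-1 and Mir138-2, copies of a miRNA of early oligodendrocyte differentiation and of neuronal synapses, were at 2170 ± 105 and 1652 ± 128 CPM. Reads that match more than 1 gene are left out of all these levels, so their order is not an order of mature miRNAs. Mir146, better known for damping innate immune signalling, had a level of 1526 ± 149 CPM.

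The remaining genes of the list ranged downward from 464 CPM. Mir17 and Mir92-1, of the miR-17-92 cluster that drives precursor proliferation, were at 464 ± 71.5 and 377 ± 112 CPM, while Mir19b-1 of the same cluster, whose mature product Mir19b-2 also encodes, had 0 counts and 1 count. Mir212 was at 287 ± 71.4 CPM, Mir145a at 248 ± 51.4 CPM, Mir27a at 162 ± 7.20 CPM and Mir32 at 19.5 ± 3.17 CPM. Several of these miRNAs are also made by neurons, vessels or microglia, whose markers were present here: Mir126a of endothelium was at 17498 ± 7038 CPM, and Mir142, Mir155 and Mir223 of microglia and myeloid cells summed to 470 ± 13.3 CPM. The choroid plexus markers summed to 1965 ± 1314 CPM, and Mir451a and Mir486 of red blood cells to 64.3 ± 4.29 CPM. Of 6 listed neuronal markers 3 reached 10 counts in each library, and the list summed to 26376 ± 2763 CPM. The list holds Mir124a-1, Mir124a-2, Mir124a-3, Mir128-1, Mir132 and Mir138-1, the last of which is also in the lineage list. Reads that match several gene copies, such as those of Mir124a, are not counted, so 3 of 6 is not a count of neuronal miRNAs present. How much of each listed miRNA came from oligodendrocytes was not tested.

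By distance on the log2(CPM + 1) scale over the 2 libraries, the genes nearest to Mir219a-2 in level were Mir30a at a distance of 0.08, Mir378a at 0.24 and Mir541 at 0.35. Those nearest to Mir338 were Mirlet7f-2 at 0.12, Mir219a-2 at 0.39 and Mir598 at 0.43. Those nearest to Mir219a-1 were Mir670 at 0.14 and, at 0.22 each, Mir1969 and Mir6986, all with under 25 counts per library. With 2 libraries this likeness is of level alone.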

How the data were processed

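Each library has its own deposited table of raw counts, not normalized by the authors, with 3 count columns below 4 summary lines. Genome mm10 and annotation M21 are named in the notes deposited with the tables. For the aligner, the counter and trimming, the sources used here give no name. From their totals and values, the columns were taken as unstranded, own-strand and opposite-strand counts. The libraries held 9962659 and 12761689 reads, of which 31.5% and 34.3% were assigned on the own strand. Summary lines stayed out of library sizes. All gene identifiers matched M21.

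The members and lists were chosen with earlier results of these data known. CPM used own-strand counts of miRNA genes, and 10 counts in each library counted as detected. Intervals are exact Clopper-Pearson 95% and the floor of a count of 0 is 3 counts. Neither covers more than counting error, as PCR copies of a molecule are counted separately. Opposite-strand pairs overlap by at least 1 base. Named were the 5 members, the 12 listed lineage genes, the 3 genes nearest in log2(CPM + 1) to each detected member, the 5 most abundant genes at 0 in the unstranded column, host genes and fixed cell type markers. Mir219c, Ring1, Urm1 and the pairs with partner counts were named after their values or positions were seen. With 1 group no test between conditions was possible, and no p-value was computed. Alternatives used edgeR 4.0.16 (TMM) and DESeq2 1.42.0 size factors in R 4.3.3, other count minimums, denominators and columns, and each replicate left out. Code for pairs and intervals was tested on simulated data. Scripts ran in Python 3.11.15 with pandas 2.3.3, scipy 1.17.1, matplotlib 3.10.9 and numpy 2.4.6.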

Additional observations from a re-analysis of the deposited data

How the results depend on the processing

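The summed level of the 5 genes, 6743 CPM, lay between 6686 and 6799 CPM with either replicate left out and within its SD under TMM and DESeq2 scaling. It was 2217 CPM with all reads of a library as denominator and 0 in the unstranded column, where the count of detected members was 0 in place of 3. At a minimum of 50 counts, 2 members were detected. Leaving out 1 replicate gave a log2 ratio of Mir219a-2 to Mir338 from -0.084 (replicate 1 alone) to 0.38 (replicate 2 alone), so its sign rests on replicate 2. With replicate 1 or replicate 2 left out, Mir219a-2 held 99.99% and 100% over Mir219b, and Mir338 99.98% and 100% over Mir3065. Mir219a-1 held 100% over Mir219c either way. With 2 replicates such a shift cannot exceed the SD. The opposite-strand column holds the same reads, so it is no separate check of the shares. Excluding genes in opposite-strand pairs, chosen after seeing the data, moved the own-strand share of both strand columns to 99.996%, against 92.7% with them. Depth limits the partners, at 0 to 3 counts, and the Mir219a-1 locus. No paired analysis was possible because the labels give 1 group.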
